A study of Mus musculus with 48 samples.

Results

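The 398 protein-coding genes on both sides of Trp53 on mouse chromosome 11 were followed here in macrophages labelled wild-type (WT) or p53 knockout (KO). They are the genes of the count table whose annotated start lies within about 10 Mb of that of Trp53 in build GRCm38 (GENCODE M21). The first of them is Olfr223 at chr11:59588497-59593289 and the last Evi2a at chr11:79526560-79530609, and Trp53 itself lies at chr11:69580359-69591873. Trp53, Ubb, Nos2, Alox15 and Cd68 were left out by rule, which takes 403 genes to 398 of the 51789 gene IDs of the table. Apart from these 5 genes, membership rests on position. Ubb, a ubiquitin gene among the 5, had a log2 difference (KO minus WT) of -2.76 over the 6 conditions described below (adjusted p = 8.02e-08). Of the 398 genes, 134 start before Trp53 and 264 after it. For membership and distances, the start is the lower coordinate of the annotated span, which on the minus strand is the 3′ end.

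Trp53 encodes p53, a transcription factor that halts the cell cycle or triggers cell death after DNA damage and other stress, with Cdkn1a among its best-known targets. A chromosome that carries a targeted allele can keep DNA of the embryonic stem cell or strain in which the allele was made, so that genes close to the allele can differ from the control strain whatever the deleted gene does. Such passenger differences are why the neighbours of a deleted gene are examined beside the rest of the genome.

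The libraries came from bone marrow-derived macrophages of C57BL/6 mice, grown for 6 days with M-CSF at 10 ng/mL. They were left unpolarized (M0), or polarized for 24 h. M1 cells received 100 ng/mL LPS with 50 ng/mL IFN-γ, and M2 cells 10 ng/mL each of the cytokines IL-4 and IL-13. Each culture then received AP-3-84, a compound known by its code name, at 10 µM or the DMSO vehicle for 4 h. Both genotypes went through all 6 conditions, with 3 libraries per genotype and condition and 36 in all. Another 12 libraries of peritoneal macrophages (from ascites or after thioglycollate) carry no genotype contrast and are used only for levels. The genotypes were taken from titles and descriptions, with which the series design is at one, although the field for genotype reads wild-type for all 36 libraries. The sources used here give neither the KO allele nor its strain of origin or backcrosses, and nothing in them says that the 3 libraries of a group came from separate animals. The p-values then measure the spread between libraries, which may be technical.

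Each bone marrow-derived library held 3081707 to 4645148 counts. Cdkn1a, the check of the labels, ranged from 34.1 to 292 CPM (normalised counts scaled to library size) over 18 KO libraries, below its range of 555 to 1119 CPM over 18 WT libraries. Trp53 itself still gave counts in KO libraries (2.70 to 9.11 CPM, against 4.79 to 13.2 CPM in WT), and its log2 difference over the 6 conditions was -0.64 (adjusted p = 0.00351). The 7 macrophage markers summed to 5279 to 38720 CPM in KO and 21882 to 48373 CPM in WT libraries, and were lower in KO than in WT in every M1 and M2 group. The 8 markers of neutrophils and granulocyte precursors summed to 324 to 3822 CPM in KO and 255 to 4232 CPM in WT libraries. In M1 vehicle they were higher in KO (1576 to 2733 CPM) than in WT (751 to 959.6 CPM), and their part in the differences of the members was not tested. Markers of T cells and mast cells were at or near 0, with Cd3e at 0 in all 36 libraries. In bulk RNA, fewer cells of a type and less RNA per cell cannot be told apart.

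The promoters of 4 members that recur below are shown because they lie on both sides of Trp53 and differed between the genotypes over the 6 conditions. Each runs from 250 bases before to 50 bases after the start of the gene in the RefSeq table for GRCm38.p6, 5′ to 3′ on the strand of the gene, and capitals mark the p53 half-site motif. Adora2b lies 7.33 Mb before Trp53 (chr11:62248734-62249033, plus strand). Xaf1 lies 2.72 Mb after Trp53 (chr11:72301379-72301678, plus strand). Pitpna lies 6.01 Mb after it (chr11:75587829-75588128, plus strand). Glod4, by its lower coordinate, lies 6.54 Mb after it, and its promoter is at the other end of its span (chr11:76243650-76243949, minus strand).
Adora2b: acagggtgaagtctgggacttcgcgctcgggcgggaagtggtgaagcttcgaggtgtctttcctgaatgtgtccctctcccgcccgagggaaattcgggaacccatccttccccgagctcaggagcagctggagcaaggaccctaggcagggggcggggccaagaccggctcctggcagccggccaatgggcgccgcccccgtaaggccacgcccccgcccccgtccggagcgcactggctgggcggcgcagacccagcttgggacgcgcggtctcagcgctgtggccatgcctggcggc
Xaf1: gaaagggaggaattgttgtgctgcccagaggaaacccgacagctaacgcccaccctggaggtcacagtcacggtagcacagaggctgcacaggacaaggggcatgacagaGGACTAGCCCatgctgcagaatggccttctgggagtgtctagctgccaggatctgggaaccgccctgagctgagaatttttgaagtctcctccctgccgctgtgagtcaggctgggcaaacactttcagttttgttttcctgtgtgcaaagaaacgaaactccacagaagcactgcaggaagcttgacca
Pitpna: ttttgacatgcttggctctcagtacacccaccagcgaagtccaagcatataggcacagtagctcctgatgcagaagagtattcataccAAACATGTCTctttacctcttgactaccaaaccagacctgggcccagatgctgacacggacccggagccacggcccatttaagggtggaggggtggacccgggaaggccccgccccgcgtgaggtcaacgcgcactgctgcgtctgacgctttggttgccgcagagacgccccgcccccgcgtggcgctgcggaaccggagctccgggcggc
Glod4: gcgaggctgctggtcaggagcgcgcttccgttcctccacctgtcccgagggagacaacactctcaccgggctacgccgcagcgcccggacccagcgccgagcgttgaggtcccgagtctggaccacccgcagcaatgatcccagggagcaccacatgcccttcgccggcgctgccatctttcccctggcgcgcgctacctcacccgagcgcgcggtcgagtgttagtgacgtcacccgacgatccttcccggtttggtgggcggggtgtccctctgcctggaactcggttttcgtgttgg
The half-site occurred once in the windows of Xaf1 and Pitpna, and these letters were not found in those of Adora2b and Glod4. Kif1c, which also recurs below and whose window is not printed, had no match either. The table matched 313 of the 398 genes, with 389 promoters, of which 25 (6.43%) held the motif on either strand. Among all 32851 promoters of the same length in the table, 8.36% held it. A pair of half-sites no more than 13 bases apart, as in a full p53 response element, was in none of the 389 promoters and in 24 of the 32851. A match describes the letters and is not a binding site.

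Of the 398 genes, 225 passed the filter on low counts and were tested among 11779 genes. The other 173 comprised 76 with no count in any of the 36 libraries and 97 with at most 156 counts in all. All 31 olfactory receptor genes of the interval were among the untested. The window ends at the olfactory receptor gene Olfr223 (0 counts in the 36 libraries), whose neighbour outside it, Olfr222, had 1 count. At the far end, Evi2a was inside, with a log2 difference of 0.05 over the 6 conditions (adjusted p = 0.694), and Rab11fip4, with 102 counts, was outside and not tested.

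The first question was how many neighbours of Trp53 differed between KO and WT macrophages, beside the rest of the genome. A gene was called where the adjusted p of edgeR's quasi-likelihood test was under 0.05. In M0 vehicle, 74 of the 225 tested members (32.9%) were called, 32 higher and 42 lower in KO, against 33.2% of all genes tested (16.4% higher and 16.8% lower). In M1 vehicle the count was 34 (15.1%), with 14 higher and 20 lower, against 11.6% of all genes (5.93% higher and 5.71% lower). In M2 vehicle it was 9 (4%), with 2 higher and 7 lower, against 3.56% (1.21% higher and 2.34% lower). The M0 and M2 shares lie near the background, and the M1 share lies above it. The 674 other tested protein-coding genes of chromosome 11 stood at 37.4%, 13.4% and 4.90%. The M1 count fell to 21 (9.33%, against 4.81% of all genes) without KO M1 vehicle replicate 3. With any 1 M1 vehicle library left out, the share of members lay above that of all genes. The M2 count was 18 without KO M2 vehicle replicate 1, 3 without replicate 2 and 4 without replicate 3. These were 8%, 1.33% and 1.78% of the members, against 7.58%, 1.03% and 0.803% of all genes.

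In the libraries with AP-3-84, 36 members (16%) were called in M0, 29 (12.9%) in M1 and 29 (12.9%) in M2, against 11.8%, 11.8% and 11.5% of all genes. The M0 count was 16 without KO replicate 1, 21 without KO replicate 2, 23 without WT replicate 1 and 17 without WT replicate 2. These were 7.11%, 9.33%, 10.2% and 7.56% of the members, against 5.70%, 7.72%, 7.92% and 6.60% of all genes. The M1 count was 18 without KO replicate 1, KO replicate 2 or WT replicate 1, and the M2 count 19 without KO replicate 3, WT replicate 1 or WT replicate 2. For M1 that was 8% of the members, against 5.16%, 8.07% and 5.87% of all genes. For M2 it was 8.44%, against 5.93%, 6.10% and 6.58%. Over the mean of the 6 conditions, 73 members (32.4%) were called, 25 higher (11.1%) and 48 lower (21.3%) in KO. Among all genes tested, 28.8% were called, 14.2% higher and 14.6% lower. The median log2 difference over the 6 conditions was -0.06 in the members and 0.005 in all genes. With total counts in place of TMM factors, the share of called members that were higher moved from 34.2% to 63.9% over the 6 conditions, from 41.2% to 77.8% in M1 vehicle, from 22.2% to 62.5% in M2 vehicle and from 17.2% to 67.6% in M1 with AP-3-84. Among all called genes it moved from 49.5% to 77.8% over the 6 conditions, as the median of all genes shifted to 0.128.

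**Figure D1:**
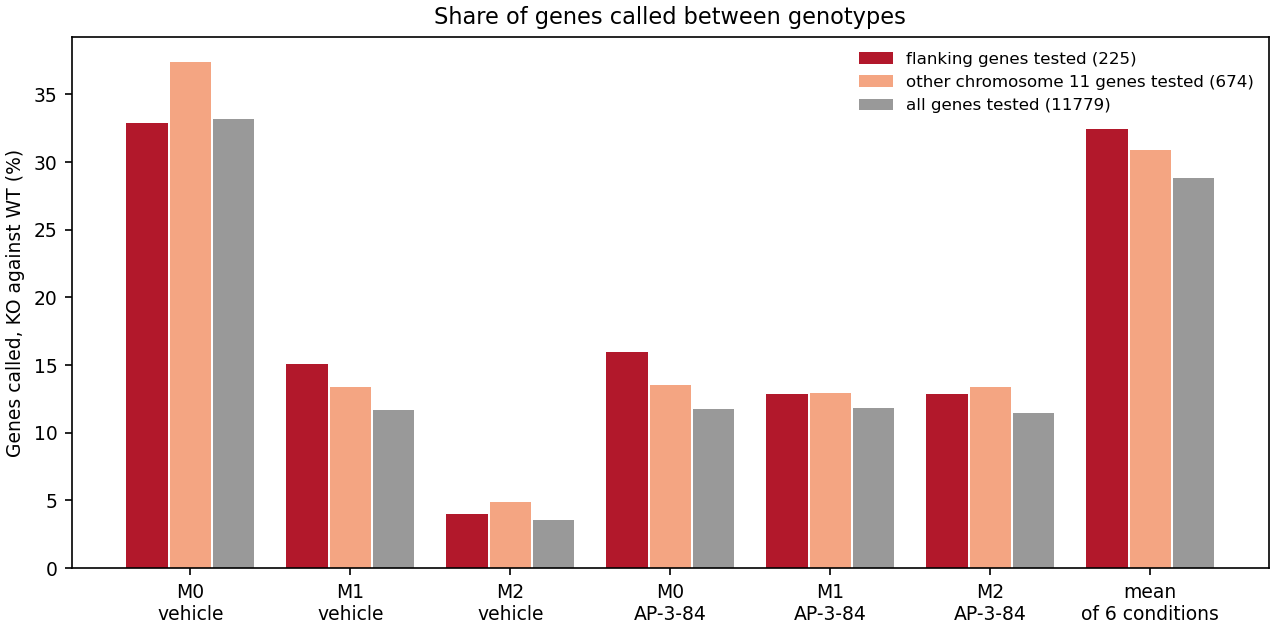
Percentage of tested genes called different between KO and WT (adjusted p under 0.05) in each of 6 conditions and over their mean, for 225 flanking members, 674 other protein-coding genes of chromosome 11 and all 11779 genes. The bars of the flanking members stand beside those of all genes in every comparison, from 4% against 3.56% in M2 vehicle to 32.9% against 33.2% in M0 vehicle. They are at 15.1% against 11.6% in M1 vehicle and at 16% against 11.8% in M0 with AP-3-84.

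The members were next counted by how often a call recurred over the 6 conditions. Adora2b and Glod4 were the 2 members called in all 6 conditions, lower in KO in each. They are 0.889% of the 225, and 0.127% of all genes tested were called in 1 direction in all 6. Calls in 1 direction in at least 4 conditions were found in 4 members (1.78%, against 1.4% of all genes): Adora2b, Glod4, Rnasek and Xaf1. The KO and WT libraries did not overlap, with KO on the same side in all 6 conditions, in 5 members (2.22%, against 0.382%): Adora2b, Mmgt2, Kif1c, Pitpna and Glod4. All 18 KO libraries lay on 1 side of all 18 WT libraries in 0 members and in 0.0679% of all genes. Adora2b and Glod4 were given as markers of the interval with these data already known, so their recurrence is a description. Rnasek, Xaf1, Mmgt2, Kif1c and Pitpna are named after their values were seen. At the other end, 100 of the 225 members (44.4%) were called in none of the 6 conditions, against 46.7% of all genes.

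Adora2b encodes the A2B adenosine receptor, a low-affinity receptor that raises cyclic AMP and restrains inflammatory responses of macrophages. The gene lies at chr11:62248984-62266453 on the plus strand, and its promoter is printed above. It was lower in KO cells in each of the 6 conditions. In M0 vehicle, Adora2b stood at 7.63, 14.8 and 14.3 CPM in the WT libraries and at 0.786, 5.23 and 1.62 CPM in the KO libraries. In M1 vehicle the values were 19.1, 23.3 and 20.9 CPM in WT and 7.69, 10.1 and 4.02 CPM in KO. In M2 vehicle they were 33.9, 17.8 and 13.3 CPM in WT and 8.76, 5.41 and 5.70 CPM in KO. In all 3 polarizations the highest KO library lay below the lowest WT library, and the libraries with AP-3-84 gave the same order. With AP-3-84 the M0 values were 13, 11.5 and 10.1 CPM in WT against 3.54, 2.22 and 1.59 CPM in KO. The M1 values were 20.8, 22.2 and 16.5 CPM against 5.30, 9.03 and 7.63 CPM, and the M2 values 9.88, 7.77 and 13.1 CPM against 3.50, 4.89 and 4.12 CPM. Over all conditions the 18 WT libraries ran from 7.63 to 33.9 CPM with a median of 14.6, and the 18 KO libraries from 0.786 to 10.1 CPM with a median of 5.06, so that the ranges overlapped only across conditions.

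The log2 difference of Adora2b (KO minus WT) was -2.29 in M0 vehicle (SE 0.442, n = 3 and 3 libraries, edgeR adjusted p = 0.000202), -1.54 in M1 vehicle (SE 0.378, adjusted p = 0.00788) and -1.72 in M2 vehicle (SE 0.381, adjusted p = 0.00926). With AP-3-84 it was -2.22, -1.44 and -1.28 in M0, M1 and M2 (adjusted p = 0.000932, 0.012 and 0.0418). The mean over the 6 conditions was -1.75 (SE 0.166, adjusted p = 1.35e-09), and under its 41 alternatives the adjusted p ran from 8.42e-30 to 5.75e-09. The single conditions rest on low counts, 1414 over the 36 libraries. The M1 vehicle call was lost without KO replicate 3 (adjusted p = 0.0734), and the M2 vehicle call without KO replicate 2 (0.0634), KO replicate 3 (0.0666) or WT replicate 1 (0.0801). With AP-3-84, the M1 call was lost without KO replicate 1 (0.0767), and the M2 call without any 1 of the KO replicates (0.111, 0.0768 and 0.127) or without WT replicate 1 (0.0903) or 3 (0.151). In peritoneal macrophages, scaled apart from the marrow cultures, Adora2b stood at 8.82 to 11.7 CPM in the 3 ascites vehicle libraries and at 0.922 to 2.19 CPM in the 3 thioglycollate vehicle libraries.

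Glod4 encodes a glyoxalase domain protein found in mitochondria, whose function is little known. It lies at chr11:76120987-76243725 on the minus strand, and its annotated span overlaps Vps53 and Gemin4 on the same strand, so that the division of 3′ reads among them could not be checked. It was lower in KO cells in each of the 6 conditions. In M0 vehicle, Glod4 stood at 37.5, 32.7 and 33.7 CPM in WT and at 21.0, 23.7 and 21.4 CPM in KO. In M1 vehicle the values were 33.4, 27.8 and 28.4 CPM in WT and 15.4, 13.4 and 13.4 CPM in KO. In M2 vehicle they were 36.5, 35.6 and 23.4 CPM in WT and 17.8, 17.3 and 19.3 CPM in KO. The groups did not overlap, although WT M2 replicate 3 came close to the KO libraries. With AP-3-84 the M0 values were 34.3, 35.9 and 40.2 CPM in WT and 14.9, 12.8 and 14.6 CPM in KO. The M1 values were 25.9, 24.4 and 30.1 CPM against 11.6, 17.3 and 18.02 CPM, and the M2 values 37.4, 43.7 and 30.6 CPM against 21.3, 17.9 and 17.02 CPM. The 18 WT libraries ran from 23.4 to 43.7 CPM (median 33.6) and the 18 KO libraries from 11.6 to 23.7 CPM (median 17.3), so that only the lowest WT library and the highest KO library crossed.

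The log2 difference of Glod4 was -0.66 in M0 vehicle (SE 0.178, adjusted p = 0.00515), -1.09 in M1 vehicle (SE 0.184, adjusted p = 0.000232) and -0.81 in M2 vehicle (SE 0.181, adjusted p = 0.0096). With AP-3-84 it was -1.38, -0.77 and -0.99 in M0, M1 and M2 (adjusted p = 7.96e-06, 0.0058 and 0.000353). The mean over the 6 conditions was -0.95 (SE 0.0743, adjusted p = 2.7e-11), with counts of 3371 over the 36 libraries. The M2 vehicle call was lost without KO replicate 2 (adjusted p = 0.057), and the M1 call with AP-3-84 under total-count scaling (0.066), with no filter on low counts (0.0528) and without KO replicate 1 (0.0654). In the 12 peritoneal libraries Glod4 ranged from 29.7 to 38.1 CPM.

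Rnasek, a small subunit of the vacuolar proton pump, lies 0.66 Mb after Trp53 at chr11:70238124-70239842. In M0 vehicle it stood at 195, 166 and 148 CPM in WT and 123, 155 and 144 CPM in KO. In M1 vehicle it stood at 183, 233 and 226 CPM in WT and 139.5, 107 and 122 CPM in KO. In M2 vehicle it stood at 264, 209.9 and 239 CPM in WT and 136, 124 and 97.5 CPM in KO. The genotypes overlapped in M0 vehicle and lay apart in M1 and M2. The log2 differences were -0.27 in M0 (adjusted p = 0.176), -0.80 in M1 (adjusted p = 0.00112) and -0.99 in M2 (adjusted p = 0.000231). With AP-3-84 they were -0.51, -1.25 and -0.93, and the mean of the 6 was -0.79 (SE 0.0637, adjusted p = 4.49e-11). The annotated gene Gm21988 overlaps Rnasek on the same strand.

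Xaf1, an interferon-inducible partner of the apoptosis inhibitor XIAP, lies at chr11:72301629-72313733 and was the member with the opposite direction among the recurrent ones. In M0 vehicle it stood at 25.8, 26.3 and 20.4 CPM in WT and 45.3, 26.2 and 25.2 CPM in KO. In M1 vehicle it stood at 61.1, 64.1 and 58.7 CPM in WT and 175, 177 and 123 CPM in KO. In M2 vehicle it stood at 16.4, 12.4 and 8.23 CPM in WT and 34.8, 48.9 and 124 CPM in KO. The M0 vehicle groups overlapped, and KO lay above WT in M1 and M2. With AP-3-84, Xaf1 stood at 16.3, 8.13 and 14.6 CPM in WT M0 and at 107, 116 and 69.9 CPM in KO M0. The log2 differences in vehicle were 0.42 (adjusted p = 0.375), 1.37 (adjusted p = 0.00778) and 2.47 (adjusted p = 0.000204) in M0, M1 and M2, and with AP-3-84 they were 2.91, 1.99 and 2.66. The mean of the 6 was 1.97 (SE 0.147, adjusted p = 4.96e-11). Of 2 interferon-inducible genes elsewhere in the genome, Isg15 had a mean difference of 0.76 (adjusted p = 0.0313) and Ifit1 of 0.40 (adjusted p = 0.298). In M0, M1 and M2 with AP-3-84 Isg15 had 2.49, 0.60 and 2.00 (adjusted p = 0.0144, 0.571 and 0.0831). Ifit1 had 1.92, 0.13 and 1.47 there (adjusted p = 0.0602, 0.926 and 0.245). In M0, M1 and M2 vehicle Isg15 had -1.29, -0.21 and 0.99, and Ifit1 -1.61, -0.31 and 0.78 (adjusted p from 0.0716 to 0.862). Their part in the difference of Xaf1 was not tested.

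Pitpna, a phosphatidylinositol transfer protein, lies at chr11:75588097-75628804. In M1 vehicle it stood at 441, 433 and 454 CPM in WT and 277, 277 and 298 CPM in KO. In M0 vehicle it stood at 394, 369 and 394 CPM in WT and 339.9, 299 and 326 CPM in KO. In M2 vehicle it stood at 329, 318 and 321 CPM in WT and 272, 264 and 259.9 CPM in KO. Every KO library lay below every WT library of its condition, by a small margin in M0 and M2. The log2 difference was -0.26 in M0 (adjusted p = 0.0361), -0.64 in M1 (adjusted p = 8.78e-05) and -0.28 in M2 (adjusted p = 0.0959), and the mean of the 6 was -0.40 (SE 0.0397, adjusted p = 2.86e-09). Mmgt2, a membrane magnesium transporter that lies 6.93 Mb before Trp53, fell by 0.79 on the log2 scale over the 6 conditions (adjusted p = 1.45e-06). Its M2 vehicle libraries stood at 19.5, 11.5 and 17.7 CPM in WT and 9.55, 6.08 and 9.18 CPM in KO. Kif1c, a kinesin motor 1.12 Mb after Trp53, fell by 0.36 (adjusted p = 4.7e-06), with 167, 189 and 175 CPM in WT and 129, 150.2 and 137 CPM in KO in M0 vehicle.

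**Figure D2:**
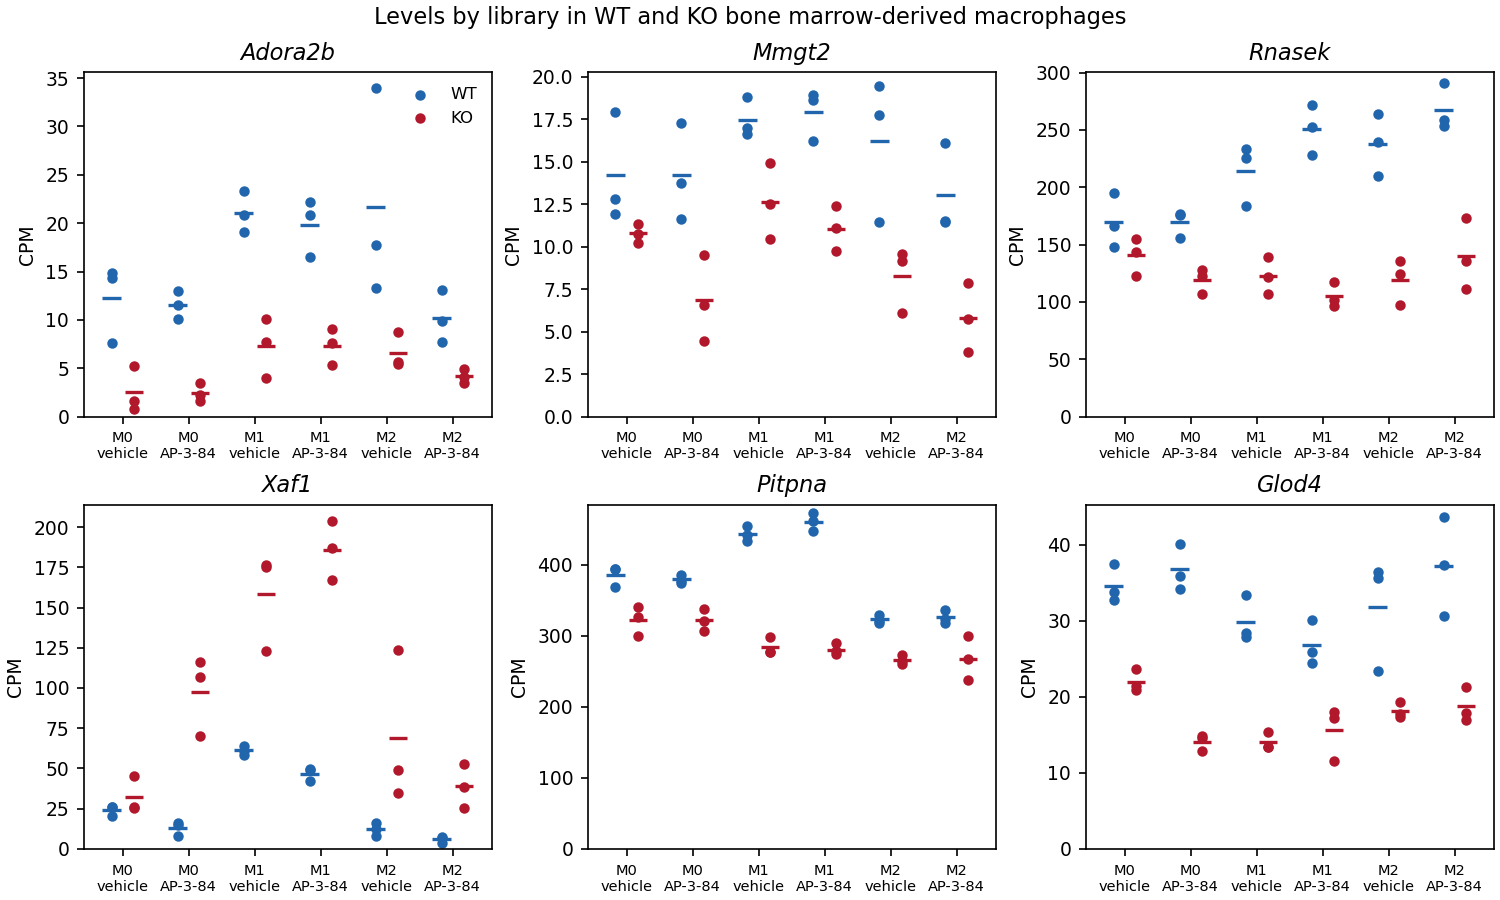
CPM in every bone marrow-derived library (WT blue, KO red, bar at the mean of 3) for Adora2b, Mmgt2, Rnasek, Xaf1, Pitpna and Glod4 in M0, M1 and M2 with vehicle or AP-3-84. KO points of Adora2b, Mmgt2, Pitpna and Glod4 lie below the WT points of their condition in all 6, while Xaf1 is higher in KO except in M0 vehicle, where the groups overlap.

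Called members were found near Trp53 and far from it. The members called over the 6 conditions were 28 of 75 (37.3%) within 2 Mb of Trp53, 7 of 26 (26.9%) from 2 to 5 Mb and 38 of 124 (30.6%) from 5 to 10 Mb, against 28.8% of all genes. In bins of 2 Mb, starting farthest before Trp53, the counts were 3 of 29, 8 of 19, 1 of 2, 1 of 6 and 10 of 21. After Trp53 they were 18 of 54, 6 of 18, 6 of 19, 9 of 25 and 11 of 32. The bin farthest before Trp53 had the lowest share, 10.3%, and 3 of the bins on that side hold fewer than 20 genes. Distance was described and not tested.

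The 5 tested members nearest on each side were taken in turn. Before Trp53, Kdm6b, a demethylase that removes the repressive mark H3K27me3, rose by 0.87 on the log2 scale over the 6 conditions (adjusted p = 0.00012). Chd3, a remodeler of the NuRD complex, fell by 0.31 (adjusted p = 0.00136). Naa38, a subunit of an N-terminal acetyltransferase, had -0.22 (adjusted p = 0.0039), a call lost under total-count scaling (adjusted p = 0.14). Rnf227 had 0.87 (adjusted p = 0.0304) and lost its call without any 1 of 6 libraries: KO M1 vehicle replicate 2, WT M1 vehicle replicates 2 and 3, KO M2 AP-3-84 replicate 3, WT M2 AP-3-84 replicate 2 and WT M1 AP-3-84 replicate 1 (adjusted p from 0.0512 to 0.0677). Its average log2 CPM was 1.38, and it may have passed the filter on low counts only through the KO groups. The call of Rnf227 is therefore a description. Wrap53, whose 5′ end faces that of Trp53 and whose product helps to assemble telomerase, had -0.03 (adjusted p = 0.924). After Trp53, Fxr2, an RNA-binding relative of the fragile X protein, fell by 0.47 (adjusted p = 1.45e-05). Eif4a1, the RNA helicase of cap-dependent translation, had -0.26 (adjusted p = 0.0101), lost under total-count scaling (adjusted p = 0.158). Mpdu1, needed for sugar donors in glycosylation, had 0.09 (adjusted p = 0.355) and Senp3, a SUMO protease, 0.60 (adjusted p = 0.0544). Mpdu1 was called under total-count scaling (adjusted p = 0.0169) and Senp3 under 14 of its 41 alternatives, whose adjusted p ran from 0.0106 to 0.177. Tnfsfm13, a readthrough of Tnfsf12 and Tnfsf13 that shares their reads, had 0.09 (adjusted p = 0.897). Of these 10 neighbours, 6 were called, 2 higher (with Rnf227 counted) and 4 lower, against 28.8% of all genes. The gene whose start is closest to that of Trp53 showed no difference past its error.

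**Figure D3:**
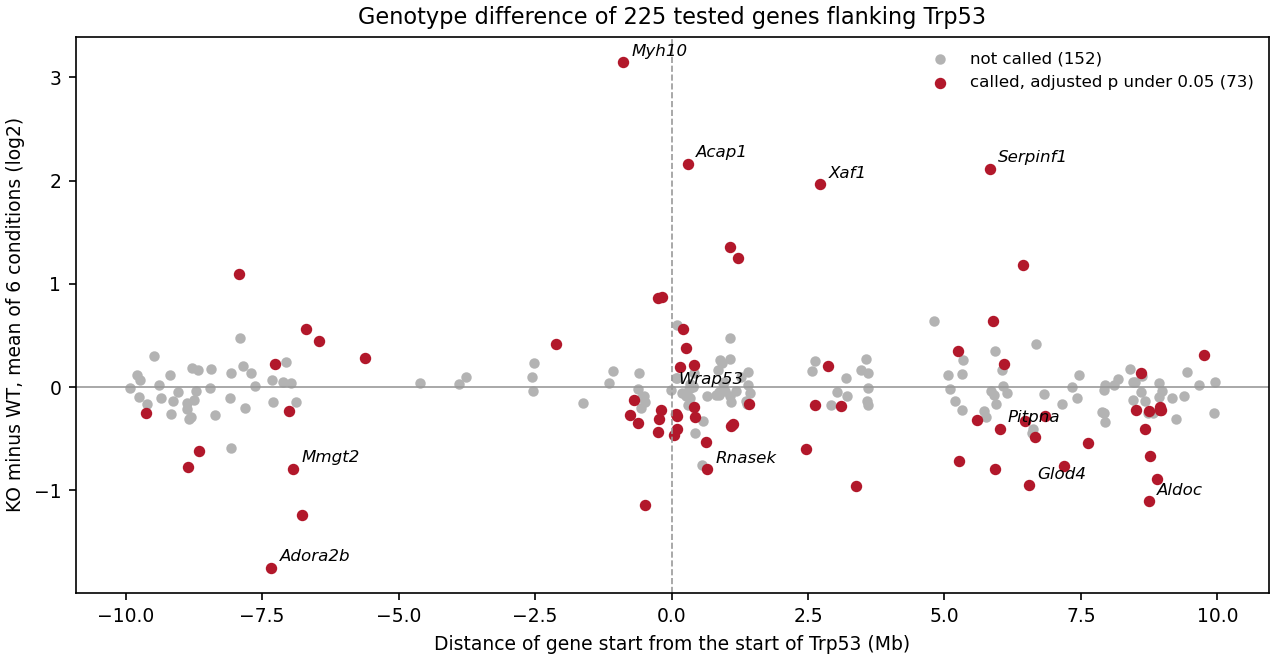
Mean log2 difference KO minus WT over 6 conditions against distance of the gene start from Trp53 in Mb, for 225 tested members (73 called, 152 not). Called genes lie on both sides and in both directions, and Adora2b at -7.33 Mb and Glod4 at 6.54 Mb are far from Trp53.

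The members were then grouped by role, with lists that had been drawn up with results of these data known. Each list is given by its calls over the 6 conditions and its median log2 difference, beside 28.8% called and a median of 0.005 in all genes. Medians within 0.128 of 0 carry no direction, since total-count scaling alone moved the median of all genes to that value. Of 25 immune receptors and mediators, 14 were tested, with 1 higher (Xaf1) and 5 lower in KO, and a median of -0.11. The lower ones were Adora2b, Scarf1, Trpv2, Tnfsf12 and Tnfsf13. Tnfsf12, however, was called higher in KO in M0 vehicle. Its genotype difference was called lower in M1 and in M2 vehicle than in M0 vehicle. Scarf1, a scavenger receptor, fell by 0.79 (adjusted p = 0.00427). Trpv2, a cation channel of macrophages (-0.24), and the ligands Tnfsf12 (-0.28) and Tnfsf13 (-0.40), which encode TWEAK and APRIL, lost their calls under total-count scaling (adjusted p = 0.154, 0.208 and 0.0901). Of 19 kinases and GTPase regulators, 16 were tested, with 3 higher (Crk, Gas7 and Nf1), 3 lower (Map2k3, Abr and Ssh2) and a median of -0.01. Map2k3, which activates p38 kinases, fell by 0.62 (adjusted p = 4.03e-06), and Gas7, a cytoskeletal adaptor, rose by 0.41 (adjusted p = 0.00052).

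Of the 23 transcription and chromatin genes in the interval, 21 were tested. Of these, 5 were higher in KO over the 6 conditions (Ncor1, Kdm6b, Polr2a, Mnt and Phf23) and 3 lower (Chd3, Per1 and Med9), with a median of 0.10. Ncor1, a corepressor of nuclear receptors, rose by 0.23 (adjusted p = 0.00121), and Per1, a repressor of the circadian clock, fell by 1.14 (adjusted p = 7.48e-06). In M0 vehicle, 6 of the 21 were higher (Ncor1, Kdm6b, Zbtb4, Mnt, Camta2 and Phf23) and 0 lower, against 16.4% higher and 16.8% lower among all genes. In M1 vehicle 2 were higher and 1 lower, in M2 vehicle 0 and 0, and with AP-3-84 2 and 0 in M0, 0 and 3 in M1 and 0 and 2 in M2. Of 17 RNA processing and translation genes, 16 were tested, with 2 higher (Rpl23a and Mybbp1a) and 3 lower (Eif4a1, Rpl26 and Fxr2) and a median of 0.03.

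Of 23 genes of mitochondria and metabolism, 22 were tested, with 2 higher (Cox10 and Eno3) and 5 lower (Acadvl, Aldoc, Glod4, Txndc17 and Mief2) and a median of -0.06. The 2 glycolytic enzymes went in opposite directions. Eno3, an enolase, rose by 1.35 (adjusted p = 2.97e-05), and Aldoc, an aldolase, fell by 1.11 (adjusted p = 1.42e-06). Mief2, which recruits the fission enzyme Drp1 to mitochondria, fell by 0.78 (adjusted p = 3.23e-05). Acadvl, which starts the oxidation of very long-chain fatty acids, fell by 0.29 (adjusted p = 0.00101), and Cox10, needed for heme of cytochrome oxidase, rose by 0.29 (adjusted p = 0.0172). Of 22 genes of vesicles, cytoskeleton and protein turnover, all tested, 1 was higher (Myh10) and 7 lower (Gabarap, Trappc1, Ndel1, Pitpna, Derl2, Cpd and Vps53), with a median of -0.14. Trappc1, a subunit of the vesicle-tethering TRAPP complex, fell by 0.43 (adjusted p = 9.31e-06), and Vps53, which tethers vesicles at the Golgi and overlaps Glod4, fell by 0.33 (adjusted p = 4.49e-05). Of 3 genes named for or known as p53 targets or adjoining Trp53, Trp53i13 and Wrap53 were tested and called in no comparison, and Hic1, with 18 counts, was not tested.

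In M0 vehicle the rule for named genes gave Spag5, Aurkb, Pimreg and Cpd as the largest falls. Spag5, a protein of the mitotic spindle, stood at 21.3, 22.2 and 21.0 CPM in WT and 0.786, 5.54 and 2.16 CPM in KO. Aurkb, the kinase of the chromosomal passenger complex, stood at 17.3, 16.7 and 10.5 CPM in WT and 2.36, 1.54 and 2.16 CPM in KO. Pimreg, a mitotic regulator, stood at 14.8, 16.2 and 20.2 CPM in WT and 2.36, 2.15 and 4.87 CPM in KO. These groups lay far apart, with log2 differences of -2.96, -2.85 and -2.43 (adjusted p = 0.000178, 0.000138 and 0.00036). Cpd, a carboxypeptidase of the Golgi, stood at 507, 467 and 384 CPM in WT and 89.9, 79.4 and 86.6 CPM in KO (log2 difference -2.41, adjusted p = 1.28e-05). The largest rises were in Tnfsfm13 (2.20), Kctd11 (1.86), Rnf167 (1.74) and Neurl4 (1.51). Kctd11, an adaptor of a ubiquitin ligase that curbs Hedgehog signalling, stood at 4.94, 5.50 and 9.97 CPM in WT and 17.03, 28.3 and 28.4 CPM in KO (adjusted p = 3.33e-05). Rnf167, a lysosomal ubiquitin ligase, stood at 6.28, 12.4 and 11.5 CPM in WT and 32.0, 34.2 and 34.9 CPM in KO (adjusted p = 0.00116). The call of Tnfsfm13 (adjusted p = 0.0278) was lost without any 1 of WT replicates 1, 2 and 3 and KO replicates 2 and 3, at adjusted p from 0.0594 to 0.0859.

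Differences between polarizations were tested directly, as the genotype difference in M1 or M2 vehicle minus that in M0 vehicle. They were called in 46 members (20.4%, against 20.7% of all genes) for M1 and in 59 (26.2%, against 27.1%) for M2. The M1 count was 29 without KO M1 vehicle replicate 3 and 30 without WT M0 vehicle replicate 1, and the M2 count was 35 without KO M2 vehicle replicate 3 and 37 without WT M2 vehicle replicate 3. These were 12.9%, 13.3%, 15.6% and 16.4% of the members, against 15.1%, 14.7%, 18.6% and 18.7% of all genes. Under total-count scaling the share of higher calls among members moved from 56.5% to 80.9% for M1 and from 49.2% to 66.1% for M2, and with no filter on low counts the M2 share was 59.3%. Both comparisons share the M0 libraries. Aurkb, low in KO in M0, stood at 3.34, 6.33 and 4.12 CPM in WT M2 and at 9.82, 15.8 and 26.3 CPM in KO M2. Its genotype difference there was 1.91 (adjusted p = 0.0195), which was lost without KO replicate 2 (0.0531) or 3 (0.169) or WT replicate 1 (0.0805) or 3 (0.0721), and it exceeded that of M0 by 4.76 (adjusted p = 1.59e-05). Spag5 stood at 11.6, 8.48 and 12.6 CPM in WT M1 and at 17.3, 30.9 and 24.8 CPM in KO M1, and its difference exceeded that of M0 by 4.11 (adjusted p = 0.000149). Shmt1, which moves one-carbon units from serine to folate, stood at 5.61, 6.21 and 7.67 CPM in WT M0 and 1.83, 0.616 and 2.16 CPM in KO M0, but at 6.86, 4.24 and 2.27 CPM in WT M1 and 14.8, 7.85 and 15.2 CPM in KO M1. The log2 difference of Shmt1 was -2.03 in M0 (adjusted p = 0.000983) and 1.51 in M1 (adjusted p = 0.0103). The M1 call was lost without KO M1 vehicle replicate 3 or WT M1 vehicle replicate 3 (adjusted p up to 0.0787). The change of 3.54 in Shmt1 between M1 and M0 (SE 0.596, adjusted p = 6.9e-05) thus crossed 0. Kctd11 went the other way, by -2.56 in M1 (adjusted p = 9.6e-05) and -2.65 in M2 (adjusted p = 4.09e-05). Ywhae, a 14-3-3 adaptor protein, stood at 953, 815 and 794 CPM in WT M0 and 553, 519 and 478 CPM in KO M0, while its M2 groups, at 488 to 651 CPM in WT and 601 to 681 CPM in KO, overlapped.

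A pair of proliferation markers elsewhere in the genome are given beside Aurkb, Spag5 and Pimreg. Both fell in KO in M0 vehicle, as did these 3 members. In M2 vehicle Aurkb passed the test, and both markers, Spag5 and Pimreg did not. Mki67, a marker of cycling cells, averaged 233.6 CPM in WT and 33.1 CPM in KO in M0 vehicle, a log2 difference of -2.82 (adjusted p = 6.07e-07). Its difference was 1.22 in M1 (adjusted p = 0.011) and 0.60 in M2 (adjusted p = 0.285). Top2a, a topoisomerase of dividing cells, had -3.24 in M0 (adjusted p = 1.95e-06), 1.18 in M1 (adjusted p = 0.0397) and 1.14 in M2 (adjusted p = 0.0863). The genotype difference of Mki67 exceeded that of M0 by 4.05 in M1 and 3.42 in M2. That of Top2a did so by 4.42 and 4.38 (edgeR interaction contrasts, adjusted p from 1.09e-06 to 4.76e-06 for both genes). The part of these markers in the differences of the mitotic members was not tested. Opposite calls in a pair of vehicle conditions were found in 8 members (3.56%, against 2.56% of all genes): Shmt1, Ulk2, Ctc1, Aurkb, Psmb6, Haspin, Timm22 and Ssh2.

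**Figure D4:**
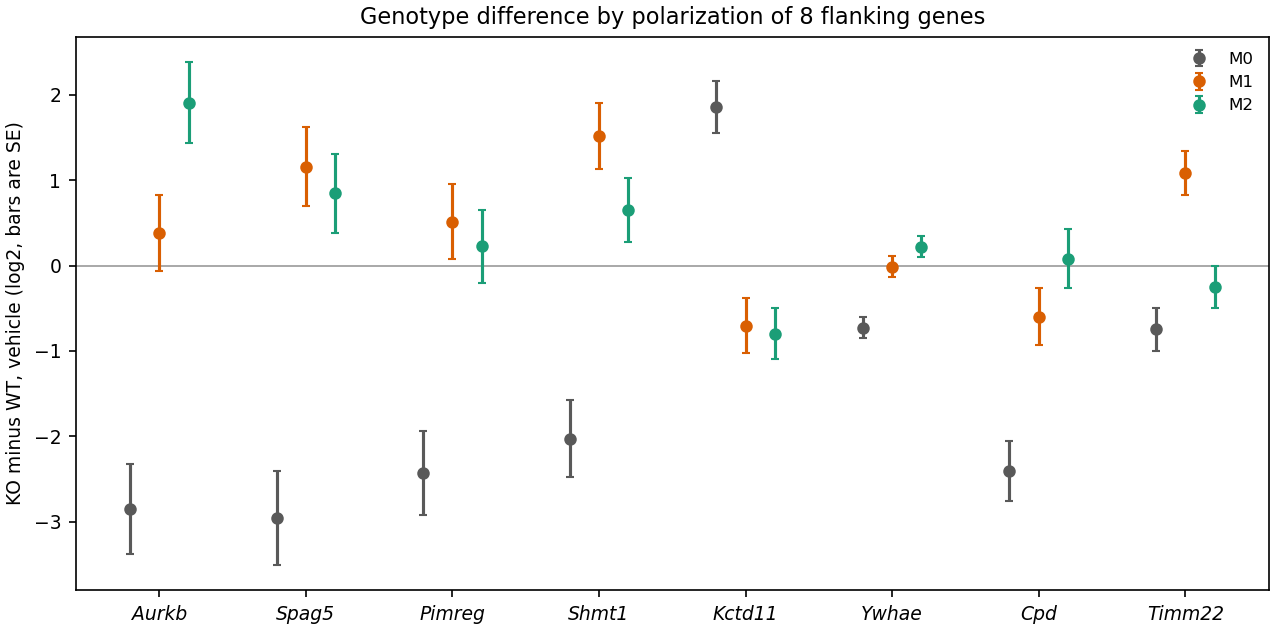
Log2 difference KO minus WT in M0, M1 and M2 vehicle for 8 members, with bars of 1 SE and 3 libraries per genotype and polarization. Aurkb, Spag5, Pimreg and Shmt1 lie below 0 in M0 and above it in M1 or M2, while Kctd11 lies above 0 in M0 and below it in M1 and M2.

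In M1 vehicle the rule for named genes gave Grap, Xaf1, Pmp22 and Timm22 as the largest rises and Adora2b, Evi2, Glod4 and Map2k3 as the largest falls. Grap, an adaptor that links receptors to Ras, stood at 5.96, 11.9 and 7.05 CPM in WT and 39.6, 22.8 and 26.6 CPM in KO (log2 difference 1.82, adjusted p = 0.00539). Pmp22, a membrane protein best known from myelin, stood at 139, 150.5 and 150.04 CPM in WT and 421, 269.6 and 285 CPM in KO (1.15, adjusted p = 0.00336). Timm22, a translocase of the inner mitochondrial membrane, rose by 1.08 (adjusted p = 0.00602). Map2k3 stood at 104, 98.8 and 83.3 CPM in WT and 41.8, 60.0 and 38.4 CPM in KO (-1.03, adjusted p = 0.00317). Evi2, a readthrough that shares reads with Evi2a and Evi2b, had -1.34 (adjusted p = 0.00804), lost without KO replicate 1 (0.0642) or 3 (0.0503). In M2 vehicle the called members with the largest changes were Xaf1 and Aurkb, both higher, and Adora2b, Rnasek, Mmgt2 and Glod4, lower. The Mmgt2 call in M2 (adjusted p = 0.0344) was lost under 7 alternatives, among them the fits without KO replicate 2 (0.177) or 3 (0.0968) or WT replicate 1 (0.127) or 3 (0.0942).

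Calls of vehicle libraries recurred in part in the libraries with AP-3-84, which form other groups but share the filter, scaling and dispersions of the same fit. Of 74 members called in M0 vehicle, 13 were called alike in M0 with AP-3-84, as were 12.6% of all called genes (4.17% of those tested). Of 34 in M1 the number was 14, against 42.8% of all called genes (4.98% of those tested). Of 9 in M2 it was 6, against 32.7% of all called genes (1.16% of those tested).

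Myh10, Serpinf1 and Acap1 had few counts in WT and more in KO. With so few WT counts, they may have passed the filter on low counts only through the KO groups. Their calls are therefore a description. Myh10, a nonmuscle myosin, had 30 counts in the 18 WT libraries together and 203 in the 18 KO libraries (adjusted p = 9.96e-07 over the 6 conditions). Serpinf1, a secreted serpin, had 63 and 296 counts (adjusted p = 7.17e-06), and Acap1, an Arf GTPase activator, 54 and 185 (adjusted p = 3.2e-06). Myh10, Acap1 and Serpinf1 are named after their values were seen. The 3 stromal cell markers, all detected, summed to 9.65 to 35.3 CPM in WT and 22.0 to 150 CPM in KO libraries, and their part in these differences was not tested.

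The interval also holds genes that respond to polarization in WT cells. In M1 against M0, 25 members (11.1%) were called, 12 higher and 13 lower, against 15.5% of all genes (8.01% higher and 7.49% lower). This count was 13 without WT M0 replicate 2 or WT M1 replicate 1, 16 without WT M0 replicate 3 and 14 without WT M1 replicate 2. These were 5.78%, 5.78%, 7.11% and 6.22% of the members, against 10.1%, 10.7%, 9.31% and 9.25% of all genes. In M2 against M0, 61 (27.1%) were called, 26 higher and 35 lower, against 23.4% (12.7% higher and 10.7% lower). Under total-count scaling the share of called members that were higher moved from 48% to 8.70% in M1 and from 42.6% to 23.3% in M2, and with no filter the M1 share was 33.3%. Mgl2, a C-type lectin of alternatively activated macrophages, stood at 0.449, 2.15 and 1.02 CPM in WT M0 and at 641, 1577 and 1927 CPM in WT M2, a log2 difference of 10.13 (adjusted p = 2.48e-11). Its neighbour Clec10a, a related lectin, stood at 6.28, 5.26 and 7.16 CPM and 92.4, 58.5 and 64.3 CPM (3.52, adjusted p = 6.33e-07). Kctd11 rose by 1.42 in M2 (adjusted p = 0.00108). Aldoc fell by 2.05 (adjusted p = 0.000108) and Cpd by 2.51 (adjusted p = 7.46e-06). Pfn1, the actin-binding profilin, had -2.54 (adjusted p = 0.0344), lost with vehicle libraries only (0.0665) and without any 1 of WT M0 replicates 1 and 2 and the 3 WT M2 replicates (0.0642 to 0.137). In M1, Xaf1 rose by 1.34 (adjusted p = 0.00794), Lrrc75a by 1.10 (adjusted p = 0.00267) and Lgals9, which encodes galectin-9, by 1.26 (adjusted p = 0.0152). The Lgals9 call was lost without WT M0 replicate 3 (adjusted p = 0.091). Tnfsf13 fell by 1.58 (adjusted p = 0.000938) and Timm22 by 1.35 (adjusted p = 0.000428), and Atp2a3, a calcium pump, had -1.38 (adjusted p = 0.0434), lost without any 1 of WT M0 replicates 1, 2 and 3 and WT M1 replicates 1 and 2 (0.0628 to 0.156). The KO M2 libraries of Mgl2, at 738, 833 and 685 CPM, lay within the range of the WT ones.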

How the data were processed

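RNA of 48 mouse macrophage libraries in 16 groups of 3 was measured with QuantSeq FWD 3′ libraries, per the labels' protocols, whose reads start near transcript 3′ ends. The table deposited by the authors holds raw counts per Ensembl gene ID and library, and all values are whole numbers. The submitters' processing notes name RSEM, Bowtie2 and DESeq2 without versions or roles. Build, annotation, strand use in counting and use of molecular identifiers: not given in the sources used here. A 3′ count cannot show a missing 5′ exon, so counts of Trp53 do not check its deletion.

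Gene IDs were matched to GENCODE M21 (GRCm38), which held 51596 of 51789. Levels are CPM with TMM factors, with marrow-derived and peritoneal libraries scaled apart. The tests were edgeR 4.0.16 quasi-likelihood tests in R 4.3.3, with filterByExpr by group, robust dispersions and 1 mean per group over 36 libraries. P-values were two-sided and adjusted by Benjamini-Hochberg over 11779 genes, with a threshold of 0.05. SE is the log2 difference divided by the root of F. On simulated counts of 11327 genes, 2-fold changes were recovered in 43%, 43% and 51% of genes in the M0, M1 and M2 vehicle contrasts and 4-fold changes in 85%, 78% and 79%. For the mean of 6 conditions the recoveries were 92% and 99%. False calls made up 0%, 3.2% and 6.47% of the calls in M0, M1 and M2 vehicle, and 5.45% for the mean.

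The members and role lists were chosen with earlier results of these data known. Named were Adora2b and Glod4, the 4 largest rises and falls per vehicle contrast among called members with an average log2 CPM of at least 3 and no overlap, the 5 tested neighbours on each side, the 3 lowest p-values per interaction and the 3 largest rises and falls per polarization contrast. Other genes named as examples were chosen after their values were seen. No column repeated another, and the chi-square of replicate pairs, averaged over genes, was 2.57 to 42.6 in 36 pairs, above that of counting noise. Alternatives were median-ratio size factors, total-count scaling, no filter, DESeq2 1.42.0, a replicate block, vehicle libraries only and each library left out in turn.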

Additional observations from a re-analysis of the deposited data

Results flagged for a closer look

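The genotype difference (KO minus WT, log2) depended on polarization in 10 members named here, by the interaction contrast of the edgeR fit over 36 libraries. Between M1 and M0 vehicle it changed by 4.11 in Spag5, 3.54 in Shmt1, 3.23 in Aurkb, 2.94 in Pimreg, 1.83 in Timm22 and 0.71 in Ywhae, and by -2.56 in Kctd11 (adjusted p from 6.9e-05 to 0.00359). Between M2 and M0 vehicle it changed by 4.76 in Aurkb, 3.80 in Spag5, 2.68 in Shmt1, 2.65 in Pimreg, 2.49 in Cpd, 2.06 in Xaf1 and 0.94 in Ywhae, and by -2.65 in Kctd11 and -0.72 in Rnasek (adjusted p from 1.59e-05 to 0.0149). Both sets share the M0 vehicle libraries. The 10 members were chosen by their vehicle differences, by their interaction p-values or after their values were seen, so these changes are a description. Such changes were called in 20.4% of the tested members for M1 and 26.2% for M2, against 20.7% and 27.1% of all genes. The calls of the 10 members held under their 18 alternatives except that of Rnasek. It was lost with no filter on low counts (adjusted p = 0.0578) and without KO M2 vehicle replicate 3 (0.065).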

How the results depend on the processing

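Of 112 differences of single named genes, 85 kept their direction and their side of the threshold under every alternative run. Among their 2652 alternative values, 2563 did so, 62 lost a call, 15 gained one and 12 changed sign. Total-count scaling gave 2093 called genes in M1 vehicle in place of 1372, and 54 members in place of 34. In M2 vehicle it gave 640 genes in place of 419, no filter gave 959 genes and 16 members, DESeq2 699 genes and 19 members in place of 9, and vehicle libraries only 269 genes. For M1 against M0 in WT, total-count scaling called 46 members in place of 25 (20.4%, against 22.1% of all genes). Leaving out 1 library gave ranges of called genes and members: M0 vehicle 2816 to 3705 and 54 to 71, M1 vehicle 580 to 1778 and 21 to 44, M2 vehicle 97 to 916 and 3 to 18. With AP-3-84 they were 688 to 2102 and 16 to 46 in M0, 623 to 977 and 18 to 22 in M1, and 717 to 1287 and 19 to 23 in M2. For the mean of 6 they were 3171 to 3507 and 66 to 78, for M1 minus M0 1777 to 2320 and 29 to 45, for M2 minus M0 2246 to 3482 and 35 to 66, for M1 against M0 in WT 1118 to 1522 and 13 to 21, and for M2 against M0 in WT 1968 to 2544 and 43 to 60. The mean difference of Wrap53 was 0.0919 under total-count scaling and ran from -0.0803 to 0.0542 with 1 library left out, and that of Tnfsfm13 ran from -0.0813 to 0.207. The cause was not tested. Same-numbered KO and WT libraries of a condition showed no common deviation (correlations from -0.371 to 0.262). With 3 libraries per group, this check cannot exclude that same-numbered libraries were handled together. Nor can it show whether same-numbered libraries of 1 genotype belong together across conditions, which was not tested. A replicate block gave 3843 called genes and 76 members in M0 vehicle, 1351 and 33 in M1, 397 and 11 in M2, and 3380 and 72 over the mean of 6, and with it Atp2a3 in M1 against M0 had an adjusted p of 0.0503. Depth limits the 173 untested members, about which nothing is said.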
